A study of Mus musculus with 5 samples.

Results

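The long terminal repeat (LTR) retrotransposons of the mouse were followed through 5 libraries of medium length RNA under the names that begin with IAP, ETn, MMETn, MMERV, MMERG, MMVL, MMTV, MuLV, MurERV, MuRRS, MURVY, MYSERV, ERV, RLTR, RMER or LTR. These 16 prefixes picked 265 of the 1036 names that had reads in any library. The choice used the spelling of the name only, and every picked name was kept, whatever its number of reads. RNA from whole testes of C57BL/6J mice, at postnatal day 7 by the study's account, gave 3 libraries from 600 ng of total RNA each: one untreated, one treated with 25 U of the enzyme that the labels name tobacco alkaline phosphatase (TAP) for 1.5 h, and one incubated for 0.5 h with 20 U of 5' polyphosphatase (5Pase). Spermatogonia, the mitotic germ cells, were sorted from C57BL/6J testes at the same age by their surface protein EpCAM, and their RNA, treated with RNA 5' pyrophosphohydrolase (RppH), gave 2 replicate libraries. By the labels, all inserts were of 115 to 255 nt, while the study's methods give sizes for the testis libraries alone. The testis libraries were made with the TruSeq kit and, by the study's methods, the spermatogonia libraries with the NEBNext kit, so that tissue, enzyme and kit differ together and cannot be told apart. The labels do not say whether the spermatogonia replicates came from separate animals, and the study calls them biological replicates.

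LTR retrotransposons are relics and living copies of retroviruses that entered the germ line. A complete copy holds an internal part with the viral genes between a pair of identical LTRs, which carry the promoter and the polyadenylation signal, and many copies have recombined to a solitary LTR. RNA polymerase II transcribes them, so that a full transcript is capped and is far longer than the inserts selected here. A read in these libraries is therefore a shorter RNA with matching sequence. Intracisternal A particle (IAP) elements and early transposons (ETn) are the families best known for new insertions in laboratory mice, and in the male germ line they are silenced by DNA methylation and by small RNAs bound to PIWI proteins.

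The adaptor of these libraries joins to RNA that ends in a 5' monophosphate and to no other. TAP and RppH turn caps and triphosphates into monophosphates, whereas 5Pase acts on triphosphates and leaves caps in place. The comparison of the 3 testis libraries thus asks which 5' ends the LTR RNAs carry, and the comparison with spermatogonia asks how their level in germ cells relates to that in the whole organ. Levels are given as RPM, here reads per 1000000 reads of 5.8S rRNA in the same library, the unit of the study. As 5.8S rRNA took 27.2% of the listed reads in the untreated, 50.2% in the TAP and 19.2% in the 5Pase library, and 39.1% and 25.9% in the spermatogonia libraries, ratios are also given per listed read, that is per read assigned to any name. Listed reads numbered 1067851 to 1160933 per testis library and 3166394 and 1993087 in spermatogonia replicates 1 and 2. Each testis treatment has 1 library, so its differences have no replicate check and no test between treatments or tissues was possible. Intervals given as 95% come from the read counts. They compare libraries, and since the reads carry no molecular identifiers they cover counting error only.

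LTR repeat reads were rare in every library, and IAP names held most of them in all libraries but the TAP library. The untreated testis library held 355 such reads, the TAP library 430 and the 5Pase library 352, which were 0.0306%, 0.0403% and 0.0325% of the listed reads. Spermatogonia replicate 1 held 2414 and replicate 2 held 1437, or 0.0762% and 0.0721%. The share of listed reads was thus higher in both spermatogonia libraries than in any testis library, with a mean of 0.0742% ± 0.00293 (SD, n = 2). As levels, these reads were 1123 RPM untreated, 802 RPM after TAP, 1692 RPM after 5Pase, and 1952 and 2787 RPM in spermatogonia. Both spermatogonia libraries again lay above all testis libraries, but the gap between 5Pase and replicate 1 was smaller than that between the replicates. In RNA pooled from many cells, fewer cells of a type and less RNA per cell cannot be told apart.

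Few names carried the reads. Of the 265 names, 54 had reads in the untreated library, 120 after TAP, 53 after 5Pase, and 211 and 171 in spermatogonia, and many of these had a single read (31, 60, 25, 64 and 60 names). A single name, IAPEz-int, held 34.6% of the LTR repeat reads of the untreated library, 14.9% after TAP, 40.3% after 5Pase, and 46.5% and 47.9% in spermatogonia. The smallest count taken as a measured level was 3 reads, which is 9.49 RPM in the untreated library, 5.60 RPM after TAP, 14.4 RPM after 5Pase, and 2.43 and 5.82 RPM in the spermatogonia libraries. Most names were too rare in testis for a ratio, and 20 names had 20 or more reads in at least 1 library. The tables of the tissues do not list the same names: 123 names had reads in both tissues, 120 in spermatogonia only, with 306 and 208 reads there, and 22 in testis only. The same overlap over names of all kinds is not given here. Whether the same repeat library was used for both tissues is not given in the sources used here.

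**Figure D1:**
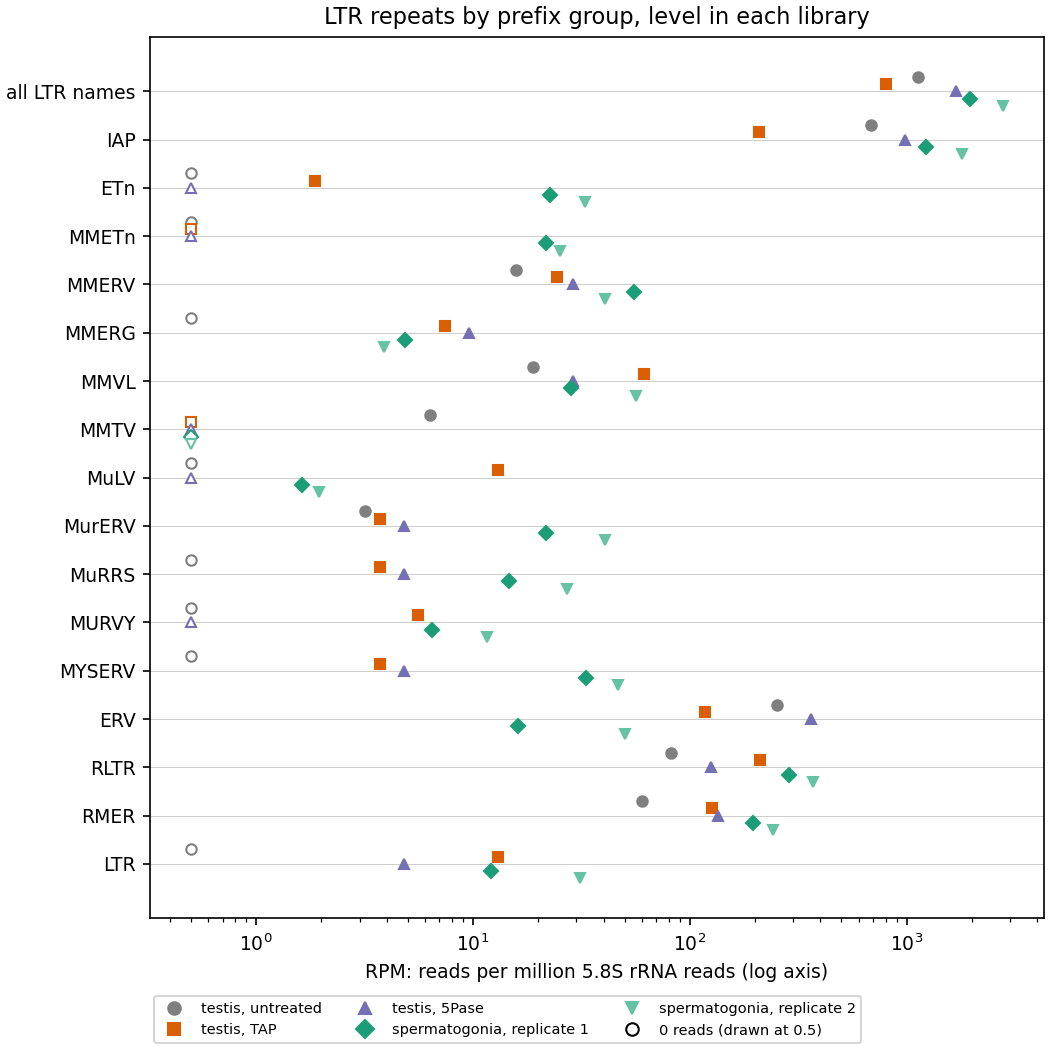
Level in RPM (log axis) of all LTR names together and of each of the 16 prefix groups, 1 point per library, with open symbols at 0.5 for a library with 0 reads. IAP reached 1232 and 1806 RPM in spermatogonia and 209 RPM in the TAP library, while ERV names stood at 118 to 361 RPM in testis and at 16.2 and 50.4 RPM in spermatogonia.

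IAP elements, which make virus-like particles inside the endoplasmic reticulum, were the largest group. Its 23 names together had 216 reads in the untreated, 112 in the TAP and 205 in the 5Pase library, and 1524 and 931 in spermatogonia. These were 683 RPM, 209 RPM and 986 RPM in testis, and 1232 and 1806 RPM in spermatogonia. The TAP library was the lowest of the 5. As a share of the LTR repeat reads, a measure that needs no outside denominator, IAP took 60.8% untreated (Wilson 95% interval 55.7% to 65.8%), 26.0% after TAP (22.1% to 30.4%) and 58.2% after 5Pase (53.0% to 63.3%). In spermatogonia the share was 63.1% (61.2% to 65.0%) and 64.8% (62.3% to 67.2%). The intervals of the untreated, 5Pase and spermatogonia libraries overlapped one another, and that of the TAP library lay below all of them.

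The other large groups were RLTR, RMER and ERV. RLTR, the rodent LTR names of many families, counted 140 names but only 26 reads untreated, 113 after TAP, 26 after 5Pase, and 354 and 191 in spermatogonia. Its share of the LTR repeat reads was 7.32% untreated, 26.3% after TAP, 7.39% after 5Pase, and 14.7% and 13.3% in spermatogonia, highest after TAP. RMER, named for rodent repeats of medium reiteration, counted 49 names with 19, 68 and 28 reads in testis and 241 and 125 in spermatogonia. Its share was 5.35% untreated, 15.8% after TAP, 7.95% after 5Pase, and 9.98% and 8.70% in spermatogonia. The 16 ERV names had 80, 63 and 75 reads in testis but 20 and 26 in the deeper spermatogonia libraries. They took 22.5%, 14.7% and 21.3% of the LTR repeat reads in testis and 0.829% and 1.81% in spermatogonia, so the 2 tissues did not overlap.

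**Figure D2:**
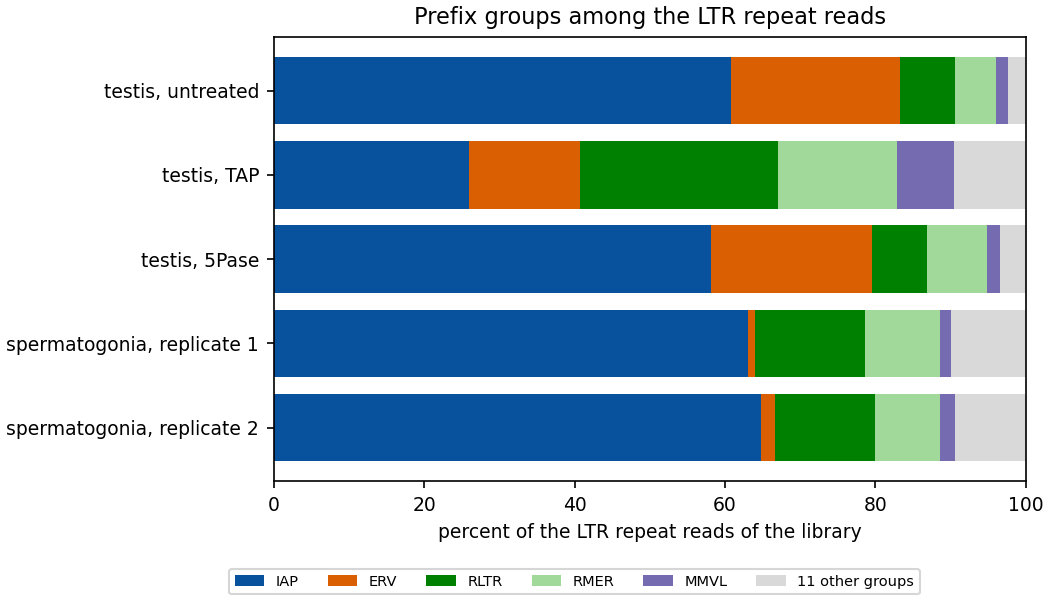
Share of the LTR repeat reads of each library, in percent, taken by the IAP, ERV, RLTR, RMER and MMVL names, with the other groups in grey. IAP filled 60.8% untreated and 26.0% after TAP, RLTR 7.32% and 26.3%, and ERV fell short of 2% in both spermatogonia libraries.

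After TAP, the LTR names together stood at 0.714 times the untreated level per 5.8S rRNA read (95% interval 0.621 to 0.822), and at 1.32 times per listed read (1.14 to 1.52), so the direction depended on the denominator. The prefix groups lay on both sides of the untreated level. IAP was lower after TAP on both scales, at 0.306 times the untreated level (0.243 to 0.384) and at 0.564 times per listed read (0.449 to 0.708). RLTR was higher on both, at 2.56 times (1.67 to 3.93) and 4.72 times per listed read (3.09 to 7.24). RMER was also higher, at 2.11 times (1.27 to 3.51) and 3.89 times per listed read (2.34 to 6.47). ERV stood at 0.464 times (0.334 to 0.646) per 5.8S rRNA read, and at 0.856 times per listed read its interval of 0.615 to 1.19 reached past 1. The quotient of the ratios of 2 groups in the same libraries is free of the denominator. It was 8.38 for RLTR over IAP (5.17 to 13.6), 6.90 for RMER over IAP (3.95 to 12.1) and 1.21 for RLTR over RMER (0.625 to 2.36).

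The 5Pase library resembled the untreated library in its make-up. Its LTR names together were at 1.51 times the untreated level per 5.8S rRNA read (95% interval 1.30 to 1.75) and at 1.06 times per listed read (0.918 to 1.23). By group the ratio per 5.8S rRNA read was 1.44 for IAP, 1.42 for ERV, 1.52 for RLTR and 2.24 for RMER, and per listed read it was 1.02, 1.01, 1.07 and 1.58, where all intervals included 1. In a chi-square test of the reads over the 11 LTR names with at least 10 reads in the pair, the untreated and 5Pase libraries differed by 0.857 times the degrees of freedom (p = 0.57). The same chi-square test, added after seeing the data, gave 7.42 times the degrees of freedom for untreated against TAP over 15 names (p = 8.5e-16) and 6.28 times for 5Pase against TAP over 14 names (p = 5.5e-12). These tests compare pairs of libraries and not the treatments. Per 5.8S rRNA read, TAP over 5Pase was 0.212 for IAP (0.168 to 0.267), 1.69 for RLTR (1.10 to 2.58) and 0.942 for RMER (0.607 to 1.46). Per listed read it was 0.553 for IAP, 4.40 for RLTR and 2.46 for RMER, so the RMER ratio changed sides of 1 with the denominator. The median of TAP over 5Pase over all names tested was 0.287, and 0.749 per listed read.

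**Figure D3:**
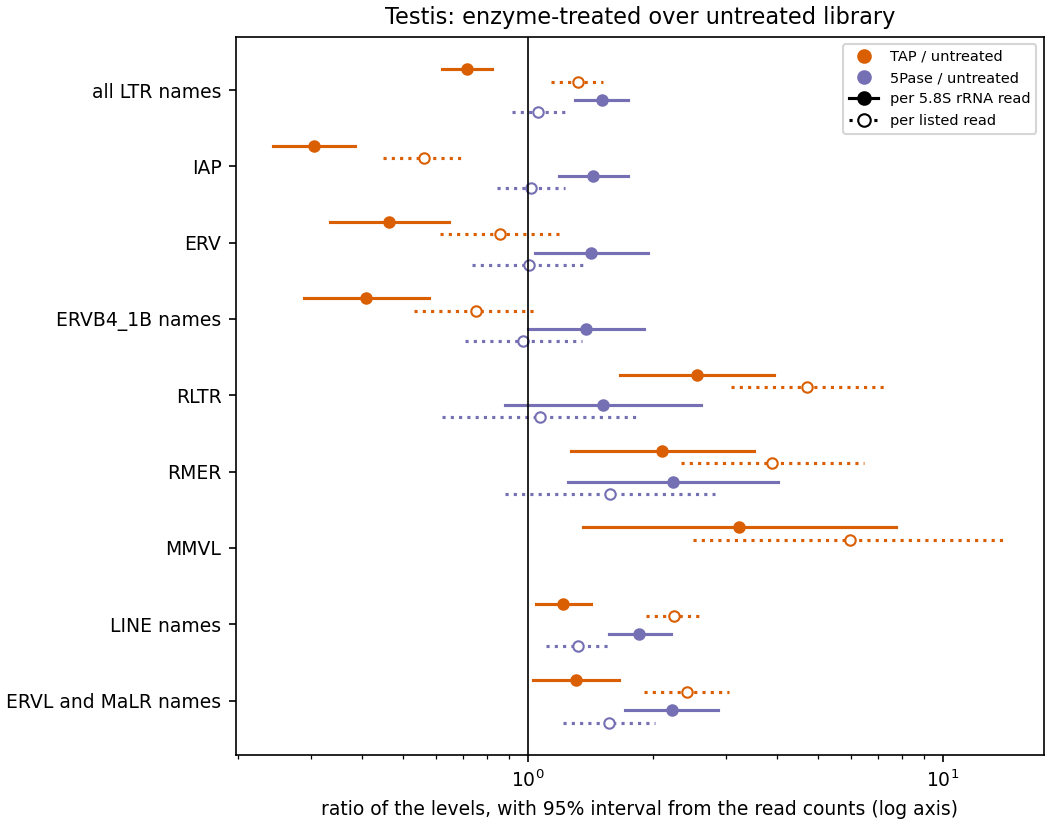
Ratio (log axis) of the TAP and of the 5Pase library to the untreated testis library for the LTR names, their main groups and the LINE and the ERVL and MaLR names, with 95% intervals from the read counts, per 5.8S rRNA read (filled) and per listed read (open); MMVL had too few reads for a 5Pase ratio. IAP lay below 1 after TAP with either denominator, at 0.306 and 0.564, and RLTR, RMER and MMVL above 1.

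Among single names, 5 had 20 or more reads in the TAP and untreated libraries together and 4 of them were at least 2-fold lower after TAP, while 50.8% of the 254 names of all kinds tested were. The 4 were IAPEz-int, IAPLTR1_Mm, ERVB4_1B-I_MM and ERVB4_1B-LTR_MM. The remaining one, MMVL30-int, was at least 2-fold higher, against 26.0% of all names. Per listed read IAPLTR1_Mm alone stayed at least 2-fold lower, where the split of all names was 33.9% higher and 36.6% lower. Of the 6 LTR names tested between 5Pase and untreated, 0 were past 2-fold in either direction, beside 37.2% of 253 names higher and 3.16% lower (25.3% and 5.53% per listed read). Between TAP and 5Pase, MMVL30-int was higher, beside 5.86% of 273 names, and 4 of the 5 names tested were lower, beside 73.6%. Per listed read MMVL30-int stayed higher, beside 15.4%, and 2 of the 5 were lower, IAPEz-int and IAPLTR1_Mm, beside 37.4%. The ratio of TAP to untreated over all names tested had a median of 0.474, and 0.874 per listed read, so that the level per 5.8S rRNA read of a typical name was lower after TAP as well.

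IAPEz-int is the internal part of the IAPEz elements, which include the most active IAP copies. It had 123 reads untreated, 64 after TAP and 142 after 5Pase, and 1123 and 688 in spermatogonia, which were 389, 119, 683, 908 and 1334 RPM. TAP was the lowest of the 5 and 5Pase the highest in testis. TAP over untreated was 0.307, and 0.566 per listed read. For 5Pase over untreated it was 1.75 (95% interval 1.38 to 2.23), and 1.24 per listed read (0.973 to 1.58), where the interval included 1. The median of 5Pase over untreated over all names tested was 1.67, and 1.18 per listed read. IAPLTR1_Mm, the LTR of such elements, had 30, 7 and 19 reads in testis and 37 and 21 in spermatogonia, or 94.9, 13.1, 91.3, 29.9 and 40.7 RPM. Its levels in spermatogonia lay below those of untreated and 5Pase testis, at 0.315 and 0.429 times the untreated level. The sister name IAPLTR1a_Mm went the other way against untreated testis, with 2, 5 and 5 reads in testis and 33 and 9 in spermatogonia. Joined, the IAPLTR1 names stood at 0.559 and 0.575 times the untreated level, and the assignment may swap reads between such names. The reads of IAPEz-int per read of IAPLTR1_Mm were 4.10 untreated (2.75 to 6.11), 9.14 after TAP (4.19 to 20.0), 7.47 after 5Pase (4.63 to 12.1), and 30.4 (21.9 to 42.1) and 32.8 (21.2 to 50.6) in spermatogonia, where the intervals of the tissues did not overlap.

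The whole IAP group showed the tissue difference between parts of the element less strongly. IAP internal names had 172, 89 and 170 reads in testis and 1339 and 819 in spermatogonia, and the other IAP names, their LTRs, had 44, 23 and 35 and 185 and 112. TAP over untreated was the same for both, 0.305 for internal names and 0.308 for LTRs, with a quotient of 1.01 (95% interval 0.574 to 1.78). Spermatogonia over TAP was 6.52 and 9.57 for internal names and 3.49 and 5.06 for LTRs, and the quotient of LTRs over internal names was 0.535 (0.330 to 0.867) and 0.529 (0.321 to 0.872) in the replicates. Not all LTRs went one way: IAPLTR2b had 3, 0 and 3 reads in testis and 45 and 30 in spermatogonia. IAPLTR2a2_Mm, which is not listed in any testis table, had 33 and 20 reads in spermatogonia, or 26.7 and 38.8 RPM. Set against the 3-read floor of the TAP library this was at least 4.77-fold and 6.93-fold higher, but a difference in the repeat library cannot be told apart.

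Further internal IAP names were, like IAPEz-int, lowest after TAP in testis. IAPEy-int had 12 reads untreated, 3 after TAP and 9 after 5Pase, IAPEY3-int had 11, 4 and 5, and IAPA_MM-int had 15, 4 and 10. In spermatogonia IAPEy-int had 72 and 36 reads, IAPEY3-int 66 and 40 and IAPA_MM-int 29 and 18. Over TAP these were 10.4 and 12.5 times as much for IAPEy-int, 7.15 and 10.4 times for IAPEY3-int, and 3.14 and 4.68 times for IAPA_MM-int. Over untreated testis IAPA_MM-int was at 0.494 and 0.736 times, below 1 in both replicates, while IAPEy-int was at 1.53 and 1.84 times. One internal IAP name went the other way in testis, IAPEY4_I, with 2, 11 and 2 reads, which was picked out after its values were seen.

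ERVB4_1B, a family of the ERVK class, made up nearly all ERV reads of testis and was almost absent from spermatogonia. Its internal part, ERVB4_1B-I_MM, had 56 reads untreated, 40 after TAP and 52 after 5Pase, or 177, 74.6 and 250.0 RPM, but 1 and 3 reads in spermatogonia, or 0.808 and 5.82 RPM. Its LTR, ERVB4_1B-LTR_MM, had 22, 14 and 19 reads in testis and 2 and 0 in spermatogonia. Both names were abundant in all testis libraries and at or under the 3-read floor in both spermatogonia libraries. Joined, a grouping made after their values were seen, they held 78, 54 and 71 reads in testis and 3 and 3 in spermatogonia, and 22.0%, 12.6% and 20.2% of the LTR repeat reads against 0.124% and 0.209%. Spermatogonia over TAP was 0.0241 (95% interval 0.00753 to 0.0770) and 0.0578 (0.0181 to 0.185). Relative to IAP in the same libraries the quotient was 0.00408 and 0.00668. Internal reads per LTR read were 2.55, 2.86 and 2.74 in the testis libraries, with overlapping intervals. In testis, TAP over untreated was 0.408 for the joined names (0.289 to 0.578), and the quotient over IAP was 1.34 (0.881 to 2.02), an interval that included 1. The assignment may swap reads between sister subfamilies, and all ERVB4 names joined had ratios of 0.0629 and 0.101 in spermatogonia over TAP. The other ERV names had 9 reads after TAP, and 17 and 23 in spermatogonia.

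**Figure D4:**
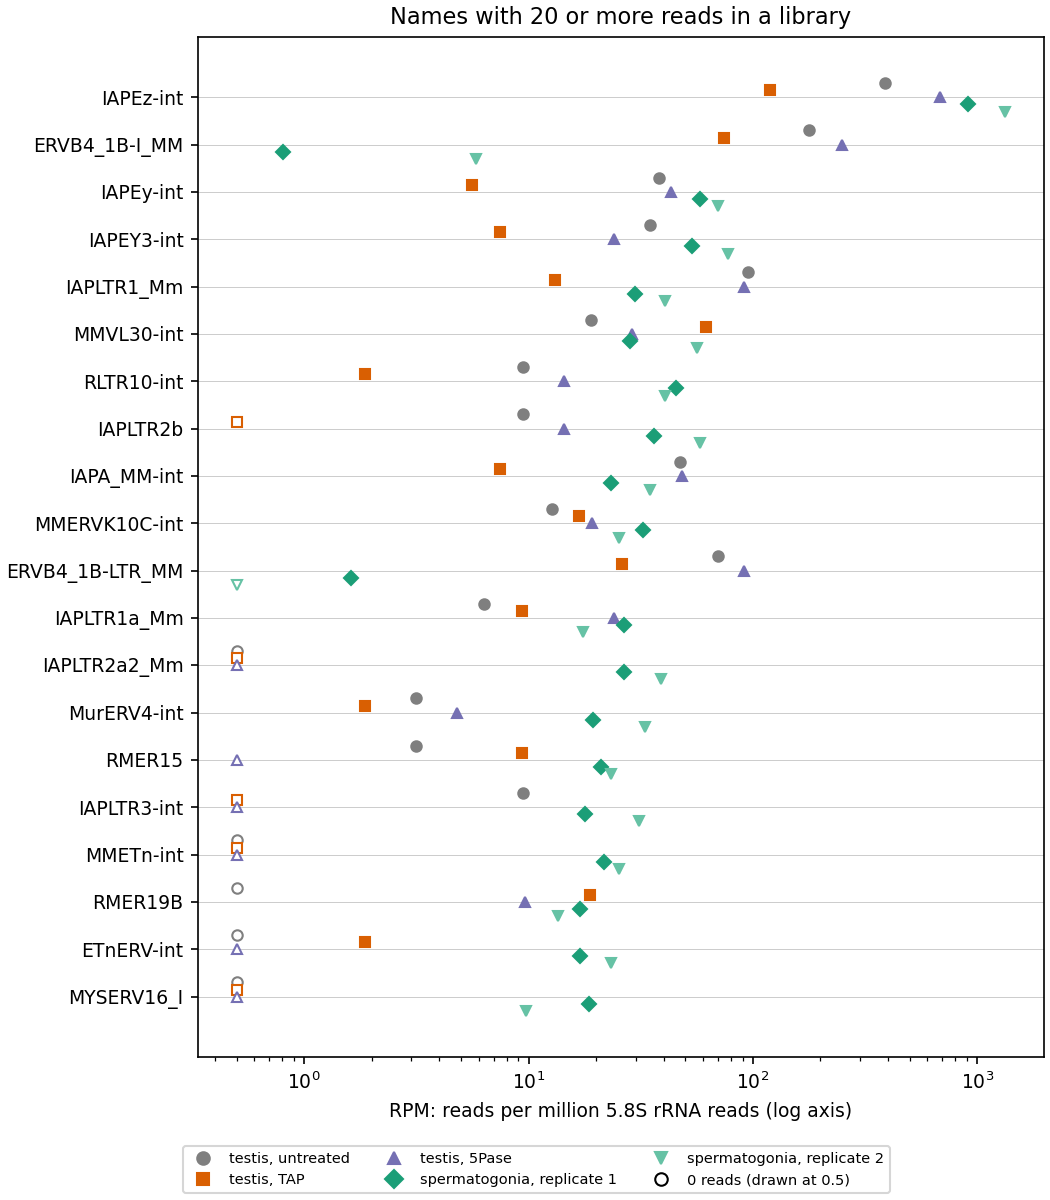
Level in RPM (log axis) of the 20 LTR names with 20 or more reads in at least 1 library, 1 point per library, ordered by total reads, with open symbols at 0.5 for 0 reads. The ERVB4_1B names are the only ones of the 20 with both spermatogonia libraries below every testis library, and IAPEz-int is the highest name in each library.

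MMVL30-int, the internal part of the virus-like 30S elements of mouse, had 6 reads untreated, 33 after TAP, 6 after 5Pase, and 35 and 29 in spermatogonia. As levels these were 19.0, 61.6, 28.8, 28.3 and 56.2 RPM, highest after TAP. TAP over untreated was 3.24 (95% interval 1.36 to 7.74) and 5.98 per listed read, and relative to IAP the quotient was 10.6 (4.32 to 26.1). Spermatogonia over TAP was 0.460 (0.286 to 0.739) and 0.914 (0.555 to 1.50), below 1 in both, with the interval of replicate 2 reaching past 1. Names of murine leukaemia virus, a gammaretrovirus whose particles can package VL30 RNA, were ordered alike in testis: RLTR4_MM-int had 1, 16 and 2 reads, RLTR4_Mm had 1, 9 and 0, and MuLV-int had 0, 7 and 0. Joined after their values were seen, the RLTR4 and MuLV names had 2 reads untreated, 32 after TAP, 2 after 5Pase, and 4 and 2 in spermatogonia. With 2 untreated reads, under the 3-read floor, TAP over untreated was 9.44 with an interval of 2.26 to 39.4. RLTR4_MM-int and MuLV-int are not listed in the spermatogonia tables, where MuLV-4_I is, so their low reads there cannot be told apart from a difference in the repeat library.

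By class, as the spermatogonia tables give it, the gammaretrovirus-like elements (ERV1) and the betaretrovirus-like elements (ERVK) differed in the TAP library. ERVK, with 195 names including IAP, ERVB4_1B and ETn, had 337, 298 and 326 reads in testis and 2215 and 1301 in spermatogonia. ERV1, with 34 names including MMVL30-int, had 11, 75 and 15 in testis and 146 and 107 in spermatogonia. TAP over untreated was 0.522 for ERVK (95% interval 0.446 to 0.609) and 4.02 for ERV1 (2.14 to 7.57), with a quotient of 7.71 for ERV1 over ERVK (4.02 to 14.8). In spermatogonia over TAP the order was the opposite, with 3.22 and 4.54 for ERVK and 0.844 and 1.48 for ERV1, and quotients of 0.262 (0.193 to 0.355) and 0.327 (0.237 to 0.450). This order held over TAP alone, the library that both comparisons share: over untreated testis the quotients were 2.02 (1.08 to 3.77) and 2.52 (1.34 to 4.74), and over 5Pase 1.43 (0.831 to 2.47) and 1.79 (1.03 to 3.11). The 13 ERVL names had 1, 9 and 1 reads in testis and 51 and 28 in spermatogonia. A further 22 names, listed in testis only, carry no class and had 6, 47 and 10 reads. The remaining name is given the DNA transposon class hAT-Charlie and was kept, as the choice used the spelling only.

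ETn elements, whose classical copies lack viral genes and move with proteins of related elements, had next to no reads in testis. MMETn-int had 0 reads in the 3 testis libraries and 27 and 13 in spermatogonia, or 21.8 and 25.2 RPM. ETnERV-int had 0, 1 and 0 reads in testis and 21 and 12 in spermatogonia, or 17.0 and 23.3 RPM. With RLTRETN_Mm, their LTR, the ETn and MMETn names had 0, 1 and 0 reads in testis against 56 and 34 in spermatogonia. Per listed read spermatogonia over TAP was 18.9 and 18.2, but 1 read in testis leaves intervals of 2.61 to 136 and 2.49 to 133. MYSERV, MurERV and MuRRS, further ERV families of mouse, were ordered in the same way. MYSERV had 0, 2 and 1 reads in testis and 41 and 24 in spermatogonia, MurERV 1, 2 and 1 and then 27 and 21, and MuRRS 0, 2 and 1 and then 18 and 14. MYSERV16_I within the first had 23 reads in replicate 1 and 5 in replicate 2 with 0 in testis. The low counts in testis set a limit of 9.49 RPM untreated, 5.60 RPM after TAP and 14.4 RPM after 5Pase, and the RNAs were not detectable at this depth rather than absent. MMETn-int and MYSERV16_I are not listed in any testis table, so a difference in the repeat library cannot be told apart for them either. The same limit holds for MYSERV6-int, with 0 reads in testis and 8 and 13 in spermatogonia. MYSERV16_I and MYSERV6-int together held most of the MYSERV reads of spermatogonia.

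The remaining small groups were scarce in all libraries. MMERV had 5, 13 and 6 reads in testis and 68 and 21 in spermatogonia, most of them MMERVK10C-int with 4, 9, 4, 40 and 13. Spermatogonia over TAP was 2.27 (95% interval 1.25 to 4.10) and 1.68 (0.841 to 3.35) for the group. Per listed read the group stood at 1.76 and 0.865, on both sides of 1. MMERG had 0, 4, 2, 6 and 2 reads and MURVY, a family amplified on the Y chromosome, 0, 3, 0, 8 and 6. Names of the LTR prefix had 0, 7, 1, 15 and 16. MMTV, the mouse mammary tumour virus, had 2 reads untreated and 0 elsewhere. None of these groups had enough reads in testis for a ratio between the enzymes.

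Spermatogonia over TAP was 2.43 and 3.47 for the LTR names together per 5.8S rRNA read, a mean of 2.95 ± 0.736 (SD, n = 2), and 1.84 ± 0.0727 (SD, n = 2) per listed read. For IAP it was 5.90 (95% interval 4.87 to 7.14) and 8.64 (7.10 to 10.5), and per listed read 4.59 and 4.45. RLTR stood at 1.36 and 1.76 and RMER at 1.54 and 1.91, but per listed read at 1.06 and 0.906 and at 1.20 and 0.985, on both sides of 1, and both groups stood higher over the untreated library. Of the 32 LTR names with 20 or more reads in these libraries, 16 were at least 2-fold higher in both replicates, against 55.5% of the 483 names of all kinds, and 1 was at least 2-fold lower, ERVB4_1B-I_MM, against 16.1%. Per listed read 11 were higher and 3 lower, beside 44.5% and 20.1% of all names. As 3 LTR names had 20 reads in the TAP library itself, most of the 32 were measured through their reads in spermatogonia, and the counts are a description. The median ratio was 2.55 over these 32 names and 3.12 over the 483.

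**Figure D5:**
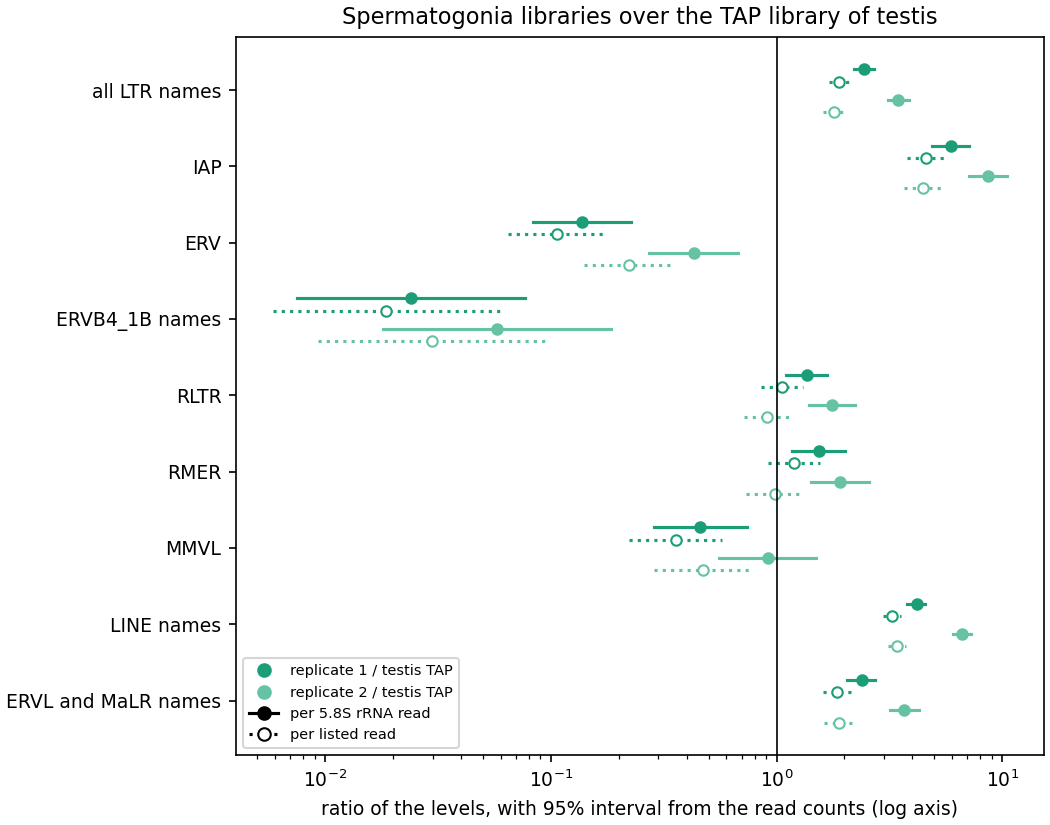
Ratio (log axis) of each spermatogonia library to the TAP library of testis for the LTR names, their main groups and the LINE and the ERVL and MaLR names, with 95% intervals from the read counts, per 5.8S rRNA read (filled) and per listed read (open). IAP lay at 4.45 to 8.64, RLTR and RMER around 1 per listed read over this library, and the ERVB4_1B names between 0.0187 and 0.0578.

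The distance from testis depended on the testis library. Over the 5Pase library the LTR names together stood at 1.15 and 1.65 in spermatogonia, and over the untreated library at 1.74 and 2.48. IAP stood at 1.25 and 1.83 over 5Pase and at 1.80 and 2.64 over untreated, against 5.90 and 8.64 over TAP. RLTR stood at 2.29 and 2.96 over 5Pase and at 3.48 and 4.50 over untreated, and per listed read at 4.65 and 3.99 and at 4.99 and 4.28. RMER stood at 1.45 and 1.80 over 5Pase and at 3.24 and 4.03 over untreated, and per listed read at 2.94 and 2.42 and at 4.65 and 3.83. The order of the groups thus depended on the testis library, with IAP above RLTR and RMER over TAP and below both over untreated. For MMVL30-int the side of 1 changed, with 1.49 and 2.96 over untreated and 0.460 and 0.914 over TAP. Within spermatogonia, replicate 2 over replicate 1 was 1.43 per 5.8S rRNA read (95% interval 1.34 to 1.52) and 0.946 per listed read (0.886 to 1.01). Over the 48 LTR names with at least 10 reads the replicates differed by 1.22 times the degrees of freedom (chi-square test of the reads, p = 0.15), a difference not distinguishable from counting noise in the make-up. Across the 243 names with reads in spermatogonia Pearson's r was 0.670 and Spearman's rho 0.494, which describe names with mostly few reads that share libraries and depth.

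Against the classes most like them, LTR names had the lower ratio after TAP. LINE names, the long interspersed elements that move without LTRs, had 244, 504 and 299 reads in testis and 4848 and 3211 in spermatogonia. ERVL and MaLR names, an older LTR lineage under other prefixes, had 99, 220 and 145 and 1206 and 778. The quotient of the TAP to untreated ratios was 0.586 for all LTR names over LINE (95% interval 0.476 to 0.722) and 0.545 over ERVL and MaLR (0.414 to 0.718). IAP alone gave 0.251 over LINE (0.191 to 0.330), while the LTR names without IAP and ERVB4_1B, a grouping made after the values were seen, gave 2.10 (1.53 to 2.88). The latter had 61, 264 and 76 reads in testis. In spermatogonia over TAP the quotient over LINE was 1.41 (1.14 to 1.75) and 1.30 (1.05 to 1.62) for IAP, and 0.326 (0.259 to 0.410) and 0.265 (0.206 to 0.341) for RLTR. For IAP the direction turned with the other testis libraries, at 0.355 (0.293 to 0.430) and 0.328 (0.269 to 0.399) over untreated and at 0.459 and 0.423 over 5Pase. For RLTR the quotient over LINE was nearer to 1 with those libraries. It was 0.685 (0.451 to 1.04) and 0.558 (0.363 to 0.858) over untreated, and 0.840 (0.554 to 1.27) and 0.684 (0.447 to 1.05) over 5Pase. Relative to ERVL and MaLR names, all LTR names were at 1.02 (0.858 to 1.22) and 0.945 (0.786 to 1.14) in spermatogonia over TAP, at 0.558 (0.442 to 0.705) and 0.515 (0.405 to 0.654) over untreated, and at 0.825 (0.671 to 1.01) and 0.761 (0.615 to 0.941) over 5Pase.

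Internal parts and LTRs were also compared over all 265 names. The 54 internal names held 71.5% of the LTR repeat reads untreated (Wilson 95% interval 66.6% to 76.0%), 55.8% after TAP (51.1% to 60.4%), 71.9% after 5Pase (67.0% to 76.3%), and 71.5% and 72.1% in spermatogonia. TAP was the one library apart. The names without an internal mark had 101 reads untreated, 190 after TAP and 99 after 5Pase, and their TAP to untreated ratio was 1.11 (0.872 to 1.41) beside 0.557 (0.467 to 0.665) for internal names, a quotient of 1.99 (1.48 to 2.68). The LTR repeat reads after TAP were spread over more names as well. In testis 66 names had reads after TAP only, 108 reads in all, 25 names had reads untreated or after 5Pase and none after TAP, and 26 names had reads in all 3 libraries, with 320, 252 and 312 reads. The same counts over names of all kinds are not given here, so whether they are particular to LTR names was not tested.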

How the data were processed

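The values are counts. The authors sequenced each library on a MiSeq, trimmed the 3' adaptor with Cutadapt, dropped testis reads in which it was not found, classified the rest with RepeatMasker and deposited raw counts of reads per name, 1 table per library. Versions and the repeat library are not given in the sources used here, and the counts have no positions. From them, RPM and ratios with 95% intervals from the log ratio (variance the sum of the reciprocal counts) were computed with Python 3.11.15, numpy 2.4.6, scipy 1.17.1, pandas 2.3.3 and matplotlib 3.10.9, and checked on simulated data. Class suffixes were dropped, and 7 testis names with a doubled internal mark were joined to their spermatogonia spelling. The prefixes, lists and comparisons were chosen with earlier results of these data known. Names are described where a library held 20 or more reads, and a ratio needs 20 reads in the libraries compared. A name was counted as higher or lower at 2-fold, for spermatogonia in both replicates. The comparison classes were ERVL and MaLR names (beginning with ORR1, MTA to MTE, MT2, MLT, MST, MERVL or THE1) and LINE names. Alternatives changed the denominator (listed or sequenced reads, median of ratios, TMM of edgeR 4.0.16 in R 4.3.3), the names, the minimum reads, the fold and the libraries. No model was fitted because each testis treatment has 1 library. No consensus sequence of a repeat was at hand, so none is shown, and levels of different names were not compared per length.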

Additional observations from a re-analysis of the deposited data

How the results depend on the processing

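Of 325 alternative values for 49 results, 190 stayed within the spread or the interval of the value given, 110 moved beyond it and 25 changed direction. The denominator decided most of these, and the cause was not tested. For all LTR names, TAP over untreated was 1.32 per listed read, 1.15 per sequenced read, 1.26 with the median of ratios and 1.17 with TMM, against 0.714, and 0.930 without IAPEz-int. In that order, 5Pase over untreated was 1.06, 1.15, 0.806 and 0.783, and TAP over 5Pase 1.24, 1.0 (just above 1), 1.56 and 1.49, with 0.676 without IAPEz-int. With the median of ratios and with TMM, 5Pase over untreated was 0.772 and 0.750 for IAP and 0.762 and 0.741 for ERV, and TAP over 5Pase 1.07 and 1.02 for ERV. Spermatogonia over TAP for all LTR names was 1.84 per listed read, 1.38 with the median of ratios, 1.57 with TMM, 1.83 without IAPEz-int, 1.40 over 5Pase and 2.11 over untreated testis. Over untreated testis it was 2.22 for IAP, 3.99 for RLTR and 3.64 for RMER, against 7.27, 1.56 and 1.72 over TAP. Over TAP, RLTR was at 0.981 per listed read, 0.731 with the median of ratios and 0.832 with TMM, RMER at 0.811 with the median of ratios and 0.923 with TMM, and MMERV at 0.967 with the median of ratios. Spermatogonia over testis for MMVL was 1.47 over 5Pase and 2.23 over untreated testis, and for ERV 1.74 without the ERVB4_1B names.

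Counts of names past 2-fold were small and moved easily. They are counts of LTR names alone and no result about LTR names. Per sequenced read, 39.4% of 254 names of all kinds were lower after TAP than untreated, and 41.8% of 273 lower than after 5Pase. In spermatogonia over TAP, 51.6% of 483 were higher and 17.0% lower, beside 14 and 2 of 32 LTR names. Shares per listed read are given above, and those for the other settings are not given here. Lower after TAP than untreated were 1 per listed read, 2 per sequenced read, 1 with the median of ratios and 1 with TMM, 2 without ERVB4_1B, 10 with at least 1 read, 2 with at least 50 and 2 past 3-fold, and higher were 3 with at least 1 read and 0 with at least 50. Higher after 5Pase than untreated were 3 with at least 1 read. Against 5Pase, TAP was higher for 2 with at least 1 read, 0 with at least 50 and 0 past 3-fold, and lower for 2, 2, 1 and 1 under the denominators, 2 without ERVB4_1B, 117 with at least 1 read and 2 with at least 50. The 117 is no measure of a difference, as counts under 3 reads were raised to 3. The 5Pase library had 0.388 times the 5.8S rRNA reads of the TAP library. A name with 3 or fewer reads in both was thus counted as lower, whatever its reads. Higher in spermatogonia than after TAP were 6 with the median of ratios, 8 with TMM and 8 with at least 50 reads, and lower were 3, 2, 4 and 3 under the denominators, 0 without ERVB4_1B, 7 with at least 1 read and 0 with at least 50. Without ERVB4_1B, IAP took 78.0% of the reads untreated and 73.0% after 5Pase, and ERV 0.722% untreated, 2.39% after TAP and 1.42% after 5Pase. Without the ERVL class, IAP took 65.3% and RMER 7.99% in spermatogonia.

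With 1 spermatogonia library left out in turn, spermatogonia over TAP was 2.43 to 3.47. LTR names higher were 8 (without replicate 1) to 16 and LTR names lower 1 to 2. The share of all names past 2-fold with 1 library left out is not given here. The shares of the LTR repeat reads were 63.1% to 64.8% for IAP, 0.829% to 1.81% for ERV, 13.3% to 14.7% for RLTR and 8.70% to 9.98% for RMER. The names listed in both tissues, an alternative added with the one over untreated testis and the one without ERVB4_1B after the data were seen, changed no direction; it moved the ratio to 1.19 for RLTR and 2.87 for LTR. No paired analysis was possible because each testis treatment has 1 library, and the sources used here match no testis library to a spermatogonia library. Depth limits every name under 20 reads.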

Other observations

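Some families of the RLTR, RMER and LTR groups, picked out after their values were seen, are given here as reads. All but the RMER4 names had more reads in each spermatogonia library than in any testis library. The whole groups had so too, and the spermatogonia libraries were the deeper ones. The RLTR13 names had 0, 4 and 0 reads in the untreated, TAP and 5Pase libraries of testis and 44 and 19 in spermatogonia, the RMER6 names 1, 7 and 1 and then 48 and 27, and the RLTR9 names 1, 2 and 0 and then 17 and 16. Most RLTR9 reads of spermatogonia were of RLTR9E, with 12 and 10 there and 0 in testis. A difference in the repeat library cannot be told apart for it. The RLTR10 names had 6, 9 and 6 reads in testis and 74 and 32 in spermatogonia, of which RLTR10-int had 3, 1 and 3 and then 56 and 21. The RMER4 names had 11, 10 and 13 reads in testis and 27 and 6 in spermatogonia, or 34.8, 18.7, 62.5, 21.8 and 11.6 RPM, and the RMER17 names 0, 11 and 3 in testis and 30 and 14 in spermatogonia, or 0, 20.5, 14.4, 24.3 and 27.2 RPM. The LTRs of the LTRIS names had 0, 6 and 1 reads in testis and 11 and 12 in spermatogonia. Apart from those of the RMER4 names, these counts were too low for ratios between the testis libraries.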
